A study of Danio rerio with 6 samples.

Results

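Matrix metalloproteinases are zinc-dependent enzymes that cut collagens and other proteins of the extracellular matrix. They are made as inactive precursors, lose their prodomain by cleavage, and are held in check by the tissue inhibitors of metalloproteinases (TIMPs). In a regenerating fin they take part in remodelling the matrix of the stump and the new tissue, and in bone they are known for cutting the collagens that osteoblasts and hypertrophic cartilage lay down. The members described here are mmp2, mmp14a and mmp14b, whose mammalian counterparts work together at the cell surface, the gelatinase mmp9, the collagenase mmp13a and the enamelysin mmp20b. They were taken by gene symbol from the deposited count table, with the transcript row of highest summed count kept for each. They are 6 of 30841 genes in that table and 6 of its 25 genes with an mmp symbol.

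The libraries came from cells sorted from adult zebrafish caudal fins 14 days post amputation, with 2 libraries in each of 3 groups. Osteoblasts were labelled EGFP-/sp7+, osteogenic mesenchymal progenitors (OMP) EGFP+/sp7+, and chondrogenic mesenchymal progenitors (CMP) EGFP+/sp7-. All 3 groups carried the same transgenes on a wild-type strain derived from Tubingen, namely cryaa:EGFP, sox9a:Cre-ERt2, the switch reporter Ola.Actb:loxp-TagBFP-loxp-EGFP, and Ola.Sp7:mCherry. The labels give neither the age of the fish, nor the Cre induction, nor how many fish a library pooled, and they do not say whether the 2 libraries of a group came from different fish. The p-values therefore measure the spread between these libraries, which may be technical.

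Libraries held 3915569 to 5281896 reads on the kept transcripts. The sort labels were checked first. Osteoblasts had 2455 and 8136 reads of mCherry, the sp7 reporter, against 6 and 62 in OMP and 3 and 47 in CMP, so by the reporter OMP stood with the sp7- group and against their sp7+ label. The sp7 transcript itself had 491 and 762 reads in osteoblasts, 38 and 53 in OMP, and 9 and 13 in CMP. It went with the label of OMP in being higher there than in CMP (log2 fold change 2.14, edgeR adjusted p = 0.0314). Yet it was also called lower in OMP than in osteoblasts, which share the sp7+ label. EGFP had 2434 and 4146 reads in osteoblasts labelled EGFP-, 3225 and 6998 in OMP, and 3931 and 4802 in CMP. The osteoblast reads thus overlapped those of both EGFP+ groups, against the EGFP- label. Reporter reads are not scaled for depth, and scaled library sizes ran from 3056361 in osteoblast replicate 1 to 6275230 in OMP replicate 2. The transgene sequence listed as TagBFP-NTR had 67 and 192 reads in osteoblasts, 56 and 319 in OMP, and 287 and 1233 in CMP, labelled EGFP+. The summed level of 15 osteoblast markers was 236509 and 302383 CPM (read counts scaled to a common library size) in osteoblasts, 14617 and 14876 CPM in OMP, and 5375 and 5656 CPM in CMP. Of the 15, 13 were called higher in osteoblasts than in OMP, where 3.22% of all genes tested were called higher and 4.9% lower. The marker alpl was called lower, at 42.9 and 30.0 CPM in osteoblasts and 161 and 97.4 CPM in OMP. The cartilage genes were mixed in CMP. There col2a1a was at 0 reads in both libraries and acana, acanb, matn1 and col9a1a at 22 reads or fewer in each. The level of col2a1b was 351 and 232 CPM in osteoblasts, 1348 and 812 CPM in OMP, and 451 and 435 CPM in CMP. That of col11a1a was 31.7 and 34.1 CPM in osteoblasts, 120 and 109 CPM in OMP, and 51.2 and 53.0 CPM in CMP. Both were highest in OMP and called lower in osteoblasts than in OMP (4.9% of all genes). The cartilage link protein gene hapln1a, at 349 and 321 CPM in osteoblasts, 395 and 502 CPM in OMP, and 3656 and 4182 CPM in CMP, and sox9a were higher in CMP than in both other groups. The groups are called by their labels below. The share of reads on 7 heat shock genes was 13.6% and 6.57% in osteoblasts, 16.5% and 6.57% in OMP, and 14.5% and 9.68% in CMP, higher in replicate 1 of every group.

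The 6 genes differed in where they were found. Transcripts of mmp2 and mmp14a were abundant in all 3 groups and did not pass the test in any comparison. Transcripts of mmp20b were found almost entirely in osteoblasts, and mmp9 was high in osteoblasts and OMP and low in CMP. In contrast, mmp13a was a CMP transcript, and mmp14b was lower in osteoblasts than in OMP. Since these are bulk libraries, a lower level can come from fewer cells that make a transcript or from less of it per cell, and these cannot be told apart. Differences were tested with edgeR's quasi-likelihood test in 1 fit of the 6 libraries over 13399 genes, and those with a Benjamini-Hochberg adjusted p under 0.05 count as called. Of the 6 members, 2 were called between osteoblasts and OMP, where 8.11% of all genes tested were called: 1 higher in osteoblasts (3.22% of all genes) and 1 lower (4.9% of all genes). Between osteoblasts and CMP, 3 were called, against 10.6% of all genes: 2 higher in osteoblasts (4.55% of all genes) and 1 lower (6.08% of all genes). Between OMP and CMP, 2 were called, against 1.89% of all genes: 1 higher in OMP (0.955% of all genes) and 1 lower (0.933% of all genes). In a fit of the osteoblast and CMP libraries alone, without the OMP libraries whose mCherry reads went against their label, the count for osteoblasts against CMP was also 3. All 6 passed the filter on low counts, but mmp20b passed through its osteoblast reads and mmp13a through its CMP reads.

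**Figure D1:**
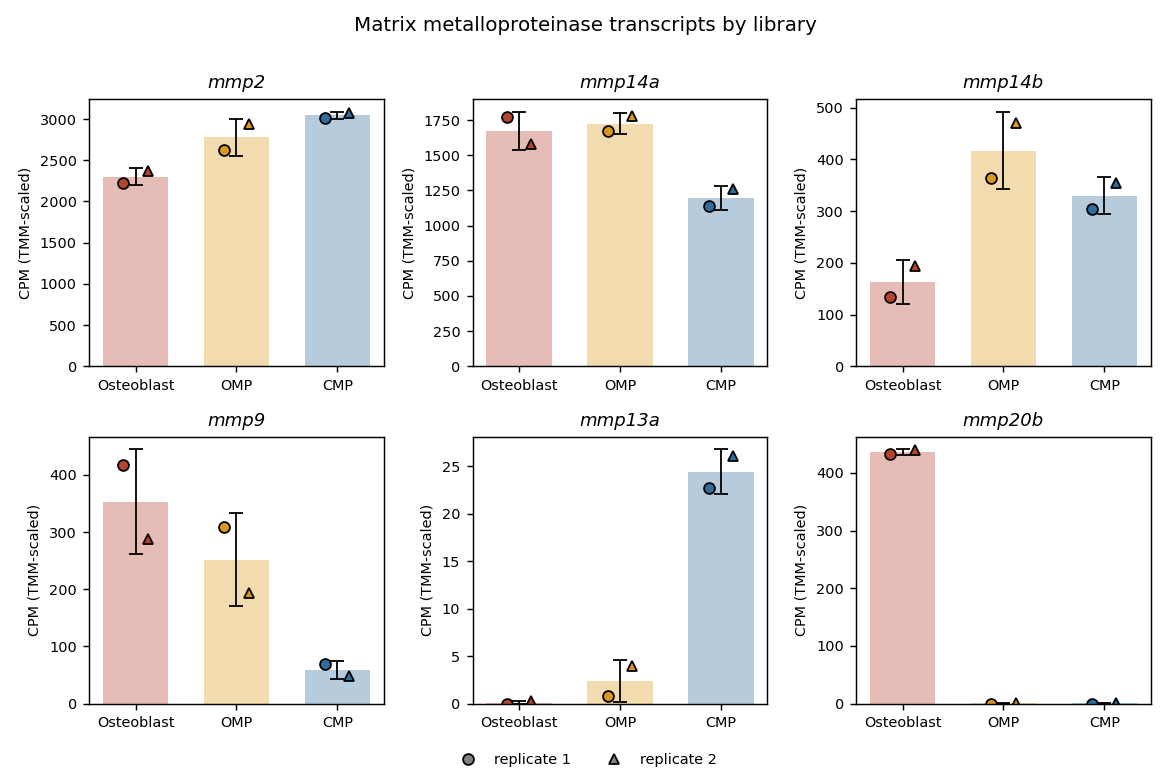
Level of each of the 6 genes in every library, in CPM after scaling by the trimmed mean of M-values (TMM), with osteoblasts, OMP and CMP from left to right, bars at the mean with 1 SD (n = 2), circles for replicate 1 and triangles for replicate 2. The osteoblast points of mmp20b lie at 433 and 439 CPM, far above the other 2 groups, while mmp13a is at 22.7 and 26.1 CPM in CMP and at or near 0 in osteoblasts.

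At the cell surface, mammalian MMP14 (MT1-MMP) cleaves fibrillar collagen and, with TIMP2, activates the precursor of the gelatinase MMP2. The level of mmp2 (NM_198067.1) was 2230.1 and 2372 CPM in osteoblasts, 2621 and 2941 CPM in OMP, and 3014 and 3074 CPM in CMP. The 3 groups did not overlap, with osteoblasts lowest and CMP highest. The steps between them were small: the log2 fold change was -0.27 ± 0.24 (SE, n = 2 each) for osteoblasts against OMP (edgeR adjusted p = 0.689), -0.40 ± 0.24 for osteoblasts against CMP (edgeR adjusted p = 0.416), and -0.13 ± 0.24 for OMP against CMP (edgeR adjusted p = 0.979). None of these passed the test, so the order of the 3 groups for mmp2 is a description.

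Zebrafish have a pair of MMP14 genes, mmp14a and mmp14b. The level of mmp14a (NM_194416.1) was 1768 and 1578 CPM in osteoblasts, 1673 and 1776 CPM in OMP, and 1137 and 1257 CPM in CMP. Osteoblasts and OMP overlapped, and both lay above CMP. The log2 fold change was -0.04 ± 0.24 for osteoblasts against OMP (edgeR adjusted p = 0.973), 0.48 ± 0.25 for osteoblasts against CMP (edgeR adjusted p = 0.313) and 0.53 ± 0.25 for OMP against CMP (edgeR adjusted p = 0.496). Neither difference from CMP passed the test, and the estimate for osteoblasts against CMP was -0.013 when counts were scaled by library totals alone, a setting that moved the median of all genes by -0.48.

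The other copy, mmp14b (NM_194414.1), behaved differently in osteoblasts. Its level was 133 and 194 CPM in osteoblasts, 364 and 469.8 CPM in OMP, and 305 and 355 CPM in CMP. Both osteoblast libraries lay below all 4 others, and OMP lay above CMP. The gene was 2.55-fold lower in osteoblasts than in OMP, a log2 fold change of -1.35 ± 0.30 (edgeR adjusted p = 0.0208). The difference of osteoblasts from CMP, -1.01 ± 0.30, did not pass (edgeR adjusted p = 0.0605), nor did that of OMP from CMP, 0.34 ± 0.29 (edgeR adjusted p = 0.870). The call against OMP was lost without osteoblast replicate 1 (edgeR adjusted p = 0.167) or OMP replicate 2 (edgeR adjusted p = 0.129). Its adjusted p ranged from 4.03e-04 to 0.167 over 19 alternatives. The table lists the accession of mmp14b on 2 rows with different counts. The kept row held 77.7% and 83.5% of the reads of both rows in osteoblasts, 82.3% and 84.1% in OMP, and 81.2% and 79.5% in CMP, and the call against OMP was the same with the rows summed (edgeR adjusted p = 0.0196). With that sum, osteoblasts against CMP was also called, at -1.03 (edgeR adjusted p = 0.0486), and without scaling beyond library totals it was called at -1.49 (edgeR adjusted p = 0.0166). On either of the other transcript rows alone, the call against OMP was lost (edgeR adjusted p = 0.0551 and 0.0553).

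Because the 2 copies differ in transcript length, their levels were compared per kilobase. Within a library, mmp14a exceeded mmp14b per length 16.5 and 10.1 times in osteoblasts, 5.72 and 4.70 times in OMP, and 4.64 and 4.41 times in CMP. The ratio was thus higher in both osteoblast libraries than in the 4 others. The ratio of mmp2 to mmp14a per length ran the other way, at 1.48 and 1.77 in osteoblasts, 1.84 and 1.94 in OMP, and 3.11 and 2.87 in CMP. In every library mmp2 was the most abundant of the 3.

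The other gelatinase, mmp9, cuts denatured collagen and basement membrane collagen, and in mammals is made by osteoclasts and neutrophils among other cells. Its level (NM_213123.1) was 418 and 288 CPM in osteoblasts, 309 and 194 CPM in OMP, and 69.6 and 47.5 CPM in CMP. Osteoblasts and OMP overlapped, and all 4 of these libraries were above both CMP libraries. It was 6.04-fold higher in osteoblasts than in CMP, a log2 fold change of 2.59 ± 0.36 (edgeR adjusted p = 0.00121), and 4.3-fold higher in OMP than in CMP, a log2 fold change of 2.1 ± 0.36 (edgeR adjusted p = 0.0172). Osteoblasts against OMP did not pass, at 0.49 ± 0.34 (edgeR adjusted p = 0.567).

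Replicate 1 had the higher mmp9 level in all 3 groups, as it had the higher heat shock share. Within replicates 1 and 2, the log2 difference of osteoblasts from CMP was 2.59 and 2.60, and that of OMP from CMP was 2.15 and 2.03. The call for osteoblasts against CMP held in all 16 alternatives. The call for OMP against CMP was lost without CMP replicate 1 (edgeR adjusted p = 0.101), without CMP replicate 2 (0.209) or without OMP replicate 1 (0.0914), in a range of 4.28e-05 to 0.209 over 16 alternatives.

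Since mmp9 is known from blood-derived cells, their markers were read beside it. The 16 leukocyte markers summed to 60.2 and 38.5 CPM in osteoblasts, 94.1 and 75.2 CPM in OMP, and 105 and 49.9 CPM in CMP, and mpeg1.1 and cxcr3.2 were at 0 in every library. The leukocyte sum was thus lower in both osteoblast libraries than in either OMP library. Both OMP sums lay between the sums of the CMP libraries. Most of the leukocyte sum came from cd74a and cd74b in every library. The level of cd74a was 36.0 and 19.5 CPM in osteoblasts, 47.3 and 38.6 CPM in OMP, and 60.9 and 21.2 CPM in CMP. That of cd74b was 14.1 and 7.33 CPM in osteoblasts, 32.6 and 24.7 CPM in OMP, and 25.6 and 17.4 CPM in CMP. The marker mpx had 0 and 0 reads in osteoblasts, 12 and 12 in OMP, and 0 and 4 in CMP. The 10 osteoclast markers summed to 650 and 494 CPM in osteoblasts, 531 and 514 CPM in OMP, and 434 and 379 CPM in CMP, with osteoblasts and OMP overlapping and both above CMP. That order rested on tnfrsf11a, which encodes the receptor for RANK ligand. Without it, the other 9 summed to 315 and 268 CPM in osteoblasts, 427 and 459 CPM in OMP, and 376 and 327 CPM in CMP, so osteoblasts were lowest. That second order rested on ctsk, at 185 and 210 CPM in osteoblasts, 303 and 392 CPM in OMP, and 237 and 246 CPM in CMP. Of the list, 6 genes (acp5a, acp5b, calcr, dcstamp, itgb3a and ocstamp) had 10 reads or fewer in every library. The level of tnfrsf11a was 335 and 226 CPM in osteoblasts, 105 and 55.0 CPM in OMP, and 57.9 and 52.2 CPM in CMP, and was called higher in osteoblasts against OMP (1.82 on the log2 scale, edgeR adjusted p = 0.0132) and against CMP (2.35, edgeR adjusted p = 0.00264). The part of such cells in the mmp9 difference was not tested.

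**Figure D2:**
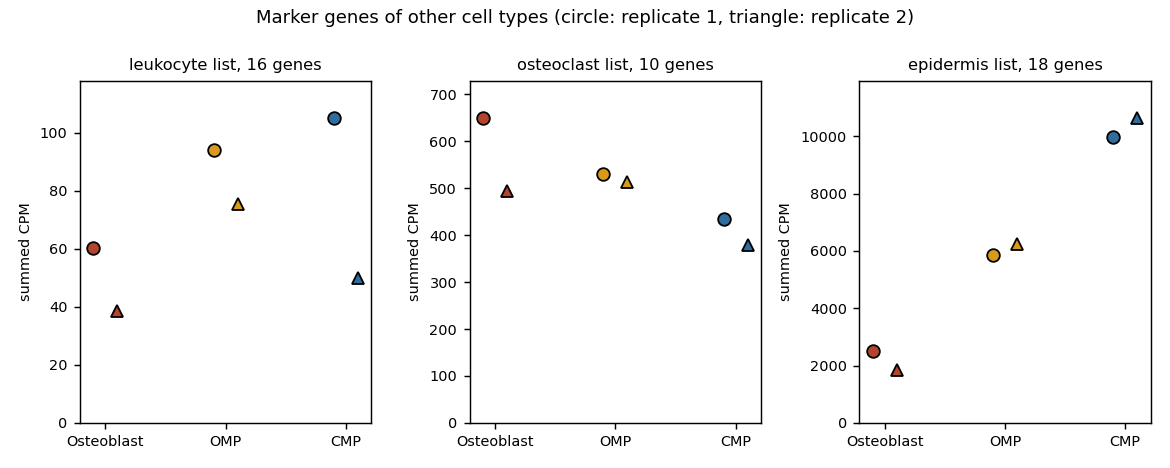
Summed level (CPM) of the leukocyte, osteoclast and epidermis marker lists, with osteoblasts, OMP and CMP from left to right, circles for replicate 1 and triangles for replicate 2. The leukocyte sums are 105 CPM or lower in every library, the osteoclast sums lie between 379 and 650 CPM, and the epidermis sums, most of which come from krt4, krt91 and krt15, are lowest in osteoblasts and highest in CMP.

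The collagenase mmp13a is the zebrafish counterpart of mammalian MMP13, which cuts fibrillar collagens, type II of cartilage among them. Its reads (NM_001290479.1) numbered 0 and 1 in osteoblasts, 3 and 25 in OMP, and 103 and 156 in CMP. As levels these are 0 and 0.229 CPM in osteoblasts, 0.821 and 3.98 CPM in OMP, and 22.7 and 26.1 CPM in CMP. The 3 groups did not overlap, and CMP stood highest. A count of 0 in osteoblast replicate 1 allows up to 3 reads, or 0.982 CPM, which is above the level of OMP replicate 1.

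Scaled for depth, mmp13a was 183 times lower in osteoblasts than in CMP, with an exact 95% counting interval of 32.5 to 7254, and this difference was called (edgeR adjusted p = 9.03e-04). Without osteoblast replicate 2, whose single read sets that ratio, it was at least 25.1-fold lower in osteoblasts against a floor of 3 reads in the remaining library. The call held in all 17 alternatives. In OMP it was 9.09-fold lower than in CMP, a log2 fold change of -3.18 ± 0.60 (edgeR adjusted p = 0.0232). The size rested on single OMP libraries, at 6.23-fold lower without OMP replicate 1 and 28.7-fold lower without OMP replicate 2. That call was lost without CMP replicate 1 (edgeR adjusted p = 0.114), without CMP replicate 2 (0.150), without OMP replicate 1 (0.0942), on the other transcript row of the gene (0.0638) and in the older quasi-likelihood fit (0.0665). Osteoblasts against OMP, with 1 read against 28, did not pass (edgeR adjusted p = 0.112). There the depth-scaled ratio was 20.9 times lower in osteoblasts, with a counting interval of 3.46 to 856. That interval leaves out the spread between the OMP libraries, at 3 and 25 reads. Without osteoblast replicate 2, mmp13a was at least 2.87-fold lower in osteoblasts than in OMP against the floor of 3 reads. The 10 genes of the cartilage marker list summed to 747 and 596 CPM in osteoblasts, 1879 and 1435 CPM in OMP, and 4217 and 4715 CPM in CMP. That order rested on hapln1a. Without it the other 9 summed to 399 and 275 CPM in osteoblasts, 1483 and 933 CPM in OMP, and 562 and 532 CPM in CMP, so OMP was highest. The part of such cells in the mmp13a difference was not tested.

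Enamelysin is best known in mammals from ameloblasts and odontoblasts, where MMP20 cuts the proteins of forming enamel. In the regenerating fin, mmp20b (XM_009291754.3) had 1323 and 1918 reads in osteoblasts, 0 and 9 reads in OMP, and 0 and 5 reads in CMP. Its level was 433 and 439 CPM in osteoblasts, 0 and 1.43 CPM in OMP, and 0 and 0.837 CPM in CMP. The osteoblast libraries were close to each other (436 ± 4.68 CPM, SD, n = 2), and all 4 other libraries were far below them. The counts of 0 allow up to 0.821 CPM in OMP replicate 1 and 0.662 CPM in CMP replicate 1.

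Scaled for depth, mmp20b was 482 times higher in osteoblasts than in OMP, with an exact 95% counting interval of 254 to 1055, and 918 times higher than in CMP, with an interval of 393 to 2828. Intervals and floors cover counting error only. Both differences were called (edgeR adjusted p = 4.49e-05 and 3.08e-05, in that order) and both calls held in all 16 alternatives. All reads of OMP and of CMP came from replicate 2. Against replicate 1 alone and a floor of 3 reads, mmp20b was at least 532-fold higher in osteoblasts than in OMP and at least 659-fold higher than in CMP. These floors hold for replicate 1 only. Within replicate 2 the difference of osteoblasts was smaller, at 8.26 from OMP and 9.04 from CMP on the log2 scale. Replicate 2 of OMP and CMP also held more mCherry reads than replicate 1, 62 against 6 and 47 against 3. Osteoblast markers were mixed between replicates 1 and 2. The level of ifitm5 was 12.9 and 13.4 CPM in OMP and 5.30 and 10.5 CPM in CMP. That of panx3 was 2.46 and 5.10 CPM in OMP and 4.42 and 3.85 CPM in CMP. The marker scpp1 had 3 and 2 reads in OMP and 6 and 5 in CMP. Whether those mmp20b reads came from sorted osteoblasts was not tested. OMP against CMP could not be told apart from 0 on so few reads (log2 fold change 0.86 ± 1.22, edgeR adjusted p = 0.963). The paralog mmp20a had 6 and 9 reads in osteoblasts, 0 and 2 in OMP, and 0 in both CMP libraries, and did not pass the filter.

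**Figure D3:**
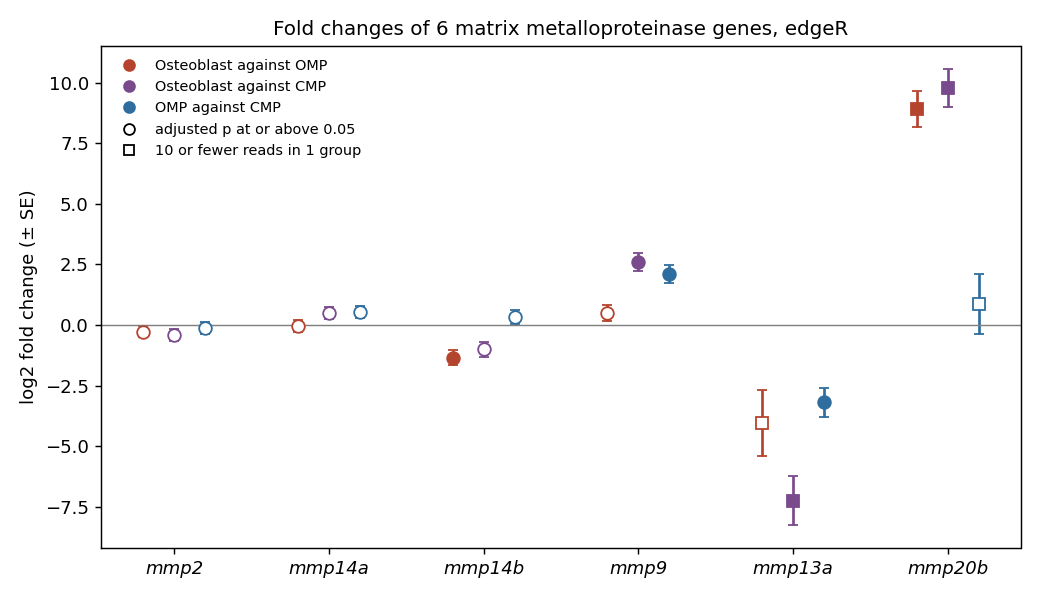
Log2 fold change of each gene for osteoblasts against OMP, osteoblasts against CMP and OMP against CMP, with bars of 1 SE from the fit over 6 libraries. Filled marks are called, and squares mark comparisons in which 1 group had 10 reads or fewer. The estimates for mmp2 and mmp14a lie within 0.53 of 0 in all 3 comparisons, while mmp20b lies at 8.92 and 9.78 for osteoblasts against OMP and CMP.

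The family was also read as a whole, by its total and its makeup. The summed level of all 25 mmp genes was 5245 and 5146 CPM in osteoblasts, 5335 and 5779 CPM in OMP, and 4967 and 5289 CPM in CMP, so osteoblasts lay within the range of CMP and below OMP. The 6 members made up most of it, at 4982 and 4872 CPM in osteoblasts, 4967 and 5386 CPM in OMP, and 4548 and 4760 CPM in CMP.

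Per kilobase, mmp2 was the largest share of the family in every library, with 42.2% and 45.6% in osteoblasts, 52.7% and 54.7% in OMP, and 64.9% and 62.5% in CMP. The share of mmp14a came second throughout, at 28.5% and 25.8% in osteoblasts, 28.6% and 28.1% in OMP, and 20.8% and 21.8% in CMP. The place after these changed between groups. In osteoblasts it was held by mmp20b, with 13.5% and 13.9%, against at most 0.04% in any OMP or CMP library. The share of mmp9 was 8.41% and 5.89% in osteoblasts, 6.60% and 3.83% in OMP, and 1.59% and 1.03% in CMP. The share of mmp14b was 1.73% and 2.55% in osteoblasts, 5.0% and 5.98% in OMP, and 4.49% and 4.94% in CMP. That of mmp13a stayed under 1% everywhere, with 0.86% and 0.93% in CMP. Shares sum to a whole, so a gene added to the total lowers the share of the others.

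**Figure D4:**
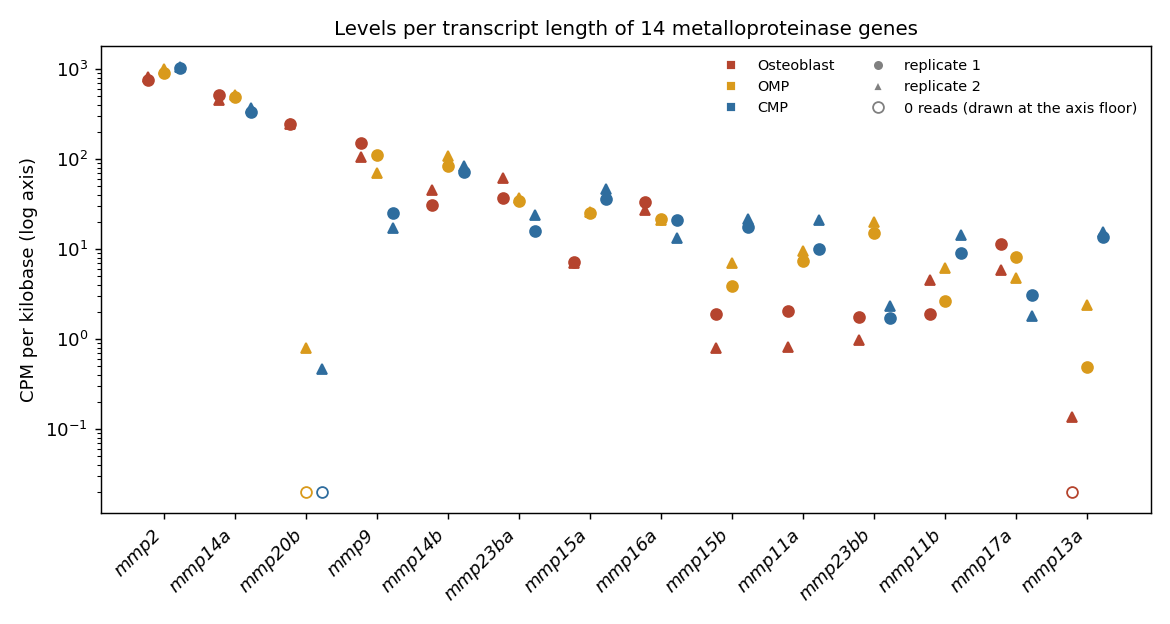
Level per transcript length (CPM per kilobase, log axis) of the 14 mmp genes that passed the filter, with 1 point per library, coloured by group, circles for replicate 1, triangles for replicate 2 and open circles at the axis floor for libraries with 0 reads. The points of mmp2 are at 757 and 805 in osteoblasts, 889 and 998 in OMP, and 1023 and 1043 in CMP, while mmp20b is at 242 and 245 in osteoblasts and below 1 in the other 2 groups.

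Of the other 19 mmp genes in the table, 8 passed the filter and 3 (mmp17b, mmp21 and mmp25a) had 0 reads in all libraries. Between osteoblasts and OMP, 4 of the 8 were called, all lower in osteoblasts (4.9% of all genes). Against CMP, 3 were lower (6.08% of all genes) and 2 higher (4.55% of all genes) in osteoblasts. Between OMP and CMP, 1 was higher in OMP (0.955% of all genes). The median log2 fold change of the 8 was -1.14, -1.23 and -0.19 in these comparisons, in that order, and over all genes tested it was -0.03, -0.02 and 0.02. For the 6 members the same medians were -0.16, 0.04 and 0.43.

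The membrane-bound members mmp15a and mmp15b, counterparts of mammalian MT2-MMP, were lower in osteoblasts. The level of mmp15a was 44.8 and 43.8 CPM in osteoblasts, 157 and 159 CPM in OMP, and 224 and 289 CPM in CMP. It was called lower in osteoblasts than in OMP (log2 difference of -1.83, edgeR adjusted p = 0.00334) and than in CMP (-2.53, edgeR adjusted p = 4.16e-04), and both calls held with any 1 library left out. The groups did not overlap, and osteoblasts were lowest. The gene mmp15b was at 5.56 and 2.29 CPM in osteoblasts, 11.2 and 20.6 CPM in OMP, and 50.6 and 62.2 CPM in CMP. It was called against CMP (-3.90, edgeR adjusted p = 9.80e-04), and its call against OMP (-2.10, edgeR adjusted p = 0.0410) was lost in 4 of 6 fits that left out 1 library, those without either CMP library or without replicate 2 of OMP or of osteoblasts (edgeR adjusted p up to 0.330).

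The stromelysin mmp11a was at 4.58 and 1.83 CPM in osteoblasts, 16.7 and 21.2 CPM in OMP, and 22.7 and 47.9 CPM in CMP. It was lower in osteoblasts than in CMP (-3.53, edgeR adjusted p = 0.00328) and than in OMP (-2.63, edgeR adjusted p = 0.0231), the second call being lost without replicate 2 of OMP or of osteoblasts (edgeR adjusted p up to 0.201). Its paralog mmp11b, at 4.91 and 11.5 CPM in osteoblasts, 6.84 and 15.6 CPM in OMP, and 23.4 and 36.6 CPM in CMP, was not called. Both genes had their highest library in CMP.

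The pair mmp23ba and mmp23bb differed from each other. The gene mmp23bb was at 2.94 and 1.60 CPM in osteoblasts, 24.9 and 33.3 CPM in OMP, and 2.87 and 3.85 CPM in CMP, and was thus an OMP transcript. It was lower in osteoblasts than in OMP (-3.72, edgeR adjusted p = 0.00204) and higher in OMP than in CMP (3.10, edgeR adjusted p = 0.0119), and the second call was lost without CMP replicate 1 or 2, with an adjusted p of up to 0.127. The gene mmp23ba was at 73.0 and 121 CPM in osteoblasts, 66.8 and 73.1 CPM in OMP, and 31.6 and 46.8 CPM in CMP. Its call in osteoblasts against CMP (1.30, edgeR adjusted p = 0.0463) was lost in 5 of 6 fits that left out 1 library, holding in the fit without osteoblast replicate 1 (edgeR adjusted p up to 0.364 in the others).

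The last 2 tested genes encode further membrane-bound enzymes. The level of mmp17a was 39.6 and 20.6 CPM in osteoblasts, 28.7 and 16.7 CPM in OMP, and 10.8 and 6.36 CPM in CMP. It was called higher in osteoblasts than in CMP (1.81, edgeR adjusted p = 0.0472), and that call was lost without osteoblast replicate 1 or either CMP library (edgeR adjusted p up to 0.298). The level of mmp16a was 81.5 and 66.2 CPM in osteoblasts, 52.0 and 51.6 CPM in OMP, and 50.8 and 32.5 CPM in CMP, and it was not called.

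The inhibitors were read next. Of 7 TIMP and RECK genes listed, 6 were in the count table and 5 passed the filter. The gene timp3 was not found there by that symbol, so its level is not known. Between osteoblasts and OMP 1 was lower in osteoblasts (4.9% of all genes). Between osteoblasts and CMP 2 were higher (4.55% of all genes) and 1 lower (6.08% of all genes) in osteoblasts. Between OMP and CMP 1 was lower in OMP (0.933% of all genes). The median log2 fold change of the 5 was 0.33, 0.62 and -0.08 in these comparisons. TIMP2 of mammals both inhibits metalloproteinases and links MMP14 to the MMP2 precursor. Its counterpart timp2a was the most abundant of the 6 inhibitor genes found in every library, at 988 and 1312 CPM in osteoblasts, 636 and 814 CPM in OMP, and 909 and 1240 CPM in CMP. Osteoblasts and CMP overlapped and OMP lay lowest, but no comparison of timp2a passed, with log2 fold changes of 0.66, 0.10 and -0.57 (edgeR adjusted p = 0.257, 0.912 and 0.563, in that order). The paralog timp2b, at 171 and 110 CPM in osteoblasts, 103 and 70.4 CPM in OMP, and 106 and 77.1 CPM in CMP, was not called.

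The called inhibitors moved in opposite directions. The level of timp4.3 was 20.9 and 11.7 CPM in osteoblasts, 66.8 and 36.8 CPM in OMP, and 224 and 223 CPM in CMP. The groups did not overlap, and the order was that of mmp13a. It was lower in osteoblasts than in CMP (-3.79, edgeR adjusted p = 3.20e-04) and than in OMP (-1.68, edgeR adjusted p = 0.0316), and lower in OMP than in CMP (-2.12, edgeR adjusted p = 0.0231). The first call held with any 1 library left out. The call of osteoblasts against OMP was lost without either CMP library, OMP replicate 1 or osteoblast replicate 2 (edgeR adjusted p up to 0.268). That of OMP against CMP was lost without either CMP library or OMP replicate 2 (edgeR adjusted p up to 0.142).

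By contrast, reck, which encodes a membrane-anchored inhibitor of several metalloproteinases, was at 371 and 381 CPM in osteoblasts, 307 and 292 CPM in OMP, and 168 and 170.2 CPM in CMP. It was higher in osteoblasts than in CMP (1.16, edgeR adjusted p = 0.0166), a call lost without any 1 of the 4 libraries compared (edgeR adjusted p up to 0.135), and the other comparisons were at 0.33 for osteoblasts against OMP (edgeR adjusted p = 0.628) and 0.83 for OMP against CMP (edgeR adjusted p = 0.182). The replicates of reck lay close together and the 3 groups did not overlap. The gene timp4.1, at 33.7 and 7.56 CPM in osteoblasts, 28.7 and 13.9 CPM in OMP, and 3.53 and 0.837 CPM in CMP, was called higher in osteoblasts than in CMP (3.27, edgeR adjusted p = 0.0385), a call lost in the same 3 fits as that of mmp17a (edgeR adjusted p up to 0.269).

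**Figure D5:**
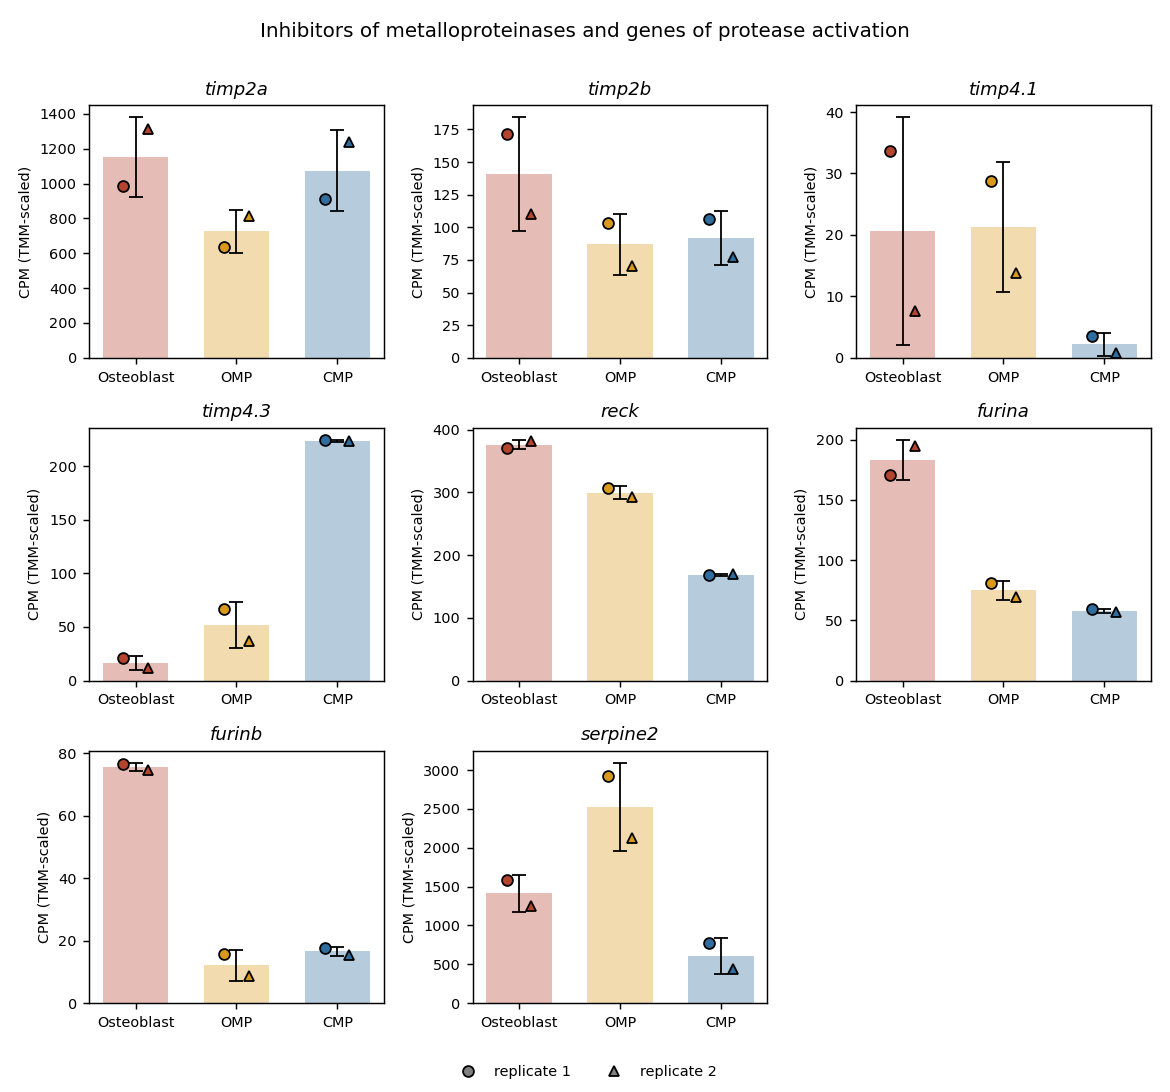
Level of the tested TIMP and RECK genes and of furina, furinb and serpine2 in every library, in CPM after TMM scaling, with osteoblasts, OMP and CMP from left to right, bars at the mean with 1 SD (n = 2), circles for replicate 1 and triangles for replicate 2. The 2 CMP points of timp4.3 are at 224 and 223 CPM above all others, while reck, furina and furinb are highest in osteoblasts.

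Membrane-bound metalloproteinases such as MMP14 lose their prodomain to furin, a proprotein convertase of the secretory pathway, and plasmin is a further activator of secreted precursors. Of 12 genes listed for these steps, 7 passed the filter. Between osteoblasts and OMP 2 were higher in osteoblasts (3.22% of all genes), and against CMP 3 were higher in osteoblasts (4.55% of all genes). Between OMP and CMP 1 was higher in OMP (0.955% of all genes). Both furin genes were higher in osteoblasts than in the other 2 groups. The level of furinb was 76.6 and 74.7 CPM in osteoblasts, 15.6 and 8.61 CPM in OMP, and 17.7 and 15.6 CPM in CMP, with a log2 fold change of 2.67 against OMP (edgeR adjusted p = 0.00214) and 2.19 against CMP (edgeR adjusted p = 0.00421). The level of furina was 171 and 195 CPM in osteoblasts, 80.7 and 69.3 CPM in OMP, and 59.2 and 56.7 CPM in CMP, with 1.29 against OMP (edgeR adjusted p = 0.0206) and 1.66 against CMP (edgeR adjusted p = 0.00427). The furinb call against OMP held with any 1 library left out, and both calls against CMP were lost without CMP replicate 2 (edgeR adjusted p = 0.0597 for furinb and 0.0619 for furina). The furina call against OMP was lost without any 1 of the 4 libraries compared (edgeR adjusted p up to 0.165).

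The serine protease inhibitor gene serpine2 was at 1584 and 1248 CPM in osteoblasts, 2929 and 2129 CPM in OMP, and 769.8 and 438 CPM in CMP, so that OMP was highest and the groups did not overlap. It was higher in osteoblasts than in CMP (1.23, edgeR adjusted p = 0.0411) and higher in OMP than in CMP (2.07, edgeR adjusted p = 0.0140). The call in osteoblasts was lost without either osteoblast library or CMP replicate 2 (edgeR adjusted p up to 0.302), and that in OMP without either CMP library or OMP replicate 1 (edgeR adjusted p up to 0.153).

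The genes most like each member over the 6 libraries were found by the root mean square difference of centred log2 CPM, among 4754 genes. Genes whose symbol is a clone or locus name were left out. The candidates were also limited to genes whose log2 CPM averaged 4 or more over the libraries. For mmp2 the 2 given are the ribosomal protein gene rpl27a (0.024) and ap2m1a (0.042). For mmp14a they were mpped2a (0.06), ddx18 and npc2, and for mmp14b rpe65b (0.11), capn2b and st6galnac. For mmp9 they were cadm2a (0.15), nrp1a and the tendon factor gene scxa, and for mmp13a gdf10a (0.24), cilp and pdlim5a. Among the candidates, the nearest to mmp20b was the sp7 reporter mCherry (0.64). It was followed by ifitm5 (0.80), which encodes the osteoblast protein BRIL, and panx3 (0.94), a pannexin of skeletal cells. Genes with few reads outside osteoblasts can fall under the limit, so closer ones may have been missed. With 0 to 9 reads per OMP or CMP library, the log2 levels of mmp20b there depend largely on the added prior count of 2. The same holds for mmp13a in osteoblasts, with 0 and 1 reads.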

How the data were processed

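RNA of sorted fin cells was sequenced and counted by the authors. The authors deposited raw read counts per transcript for the 6 libraries in 1 table, with the transcript length as another column. Reads were aligned to GRCz11 with HISAT2 2.2.1 and counted with featureCounts 2.0.3, per the submitters' processing notes. Settings for strand and for multi-mapping reads are not given in the sources used here. Paralogs and overlapping genes may thus share or split reads. The table held 75811 rows, and 12 further columns of normalized values were not used. After 2 rows with empty cells were dropped, 1 transcript row was kept per gene and 30841 genes were left, the transgenes included.

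Counts were filtered with filterByExpr, scaled by the trimmed mean of M-values (TMM), and fitted with edgeR 4.0.16 (R 4.3.3) by quasi-likelihood with 3 residual degrees of freedom and a biological coefficient of variation of 0.377. Standard errors are the log2 fold change divided by the root of the F statistic. A log2 fold change is the first group named over the second. The adjusted p is the Benjamini-Hochberg value over 13399 genes. The 3 comparisons share libraries. Levels are CPM, and levels per kilobase use the listed length. Where a group had 10 reads or fewer, the depth-scaled ratio has an exact 95% interval. Alternatives were DESeq2 1.42.0, other scalings, filters, transcript rows, a replicate block, 4-library fits and leaving out each library. The script was tested on simulated data. These had less spread between libraries than the real data, and only genes with many reads were changed. That test thus does not cover genes with few reads.

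The members and all gene lists were chosen with earlier results of these data known. Named were the 6 members, every tested mmp, TIMP and RECK gene, every called activation gene and up to 4 called genes per further list and comparison by smallest p. A few results that this rule selects are not reported here, and the counts for the activation genes give those higher in the first group named.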

Additional observations from a re-analysis of the deposited data

How the results depend on the processing

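Over the alternatives run, the 298 log2 fold changes recomputed for the 6 members kept direction and side of the threshold in 280, lost a call in 12, gained one in 3 and changed sign in 3. The sign changed for mmp14a in osteoblasts against OMP without osteoblast replicate 2 (0.058, in a range of -0.099 to 0.058 with 1 library left out), for mmp14a in osteoblasts against CMP without scaling beyond library totals (-0.013), and for mmp20b in OMP against CMP without OMP replicate 2 (-4.11, in a range of -4.11 to 4.98). None of these was called in either fit. That scaling moved the median of all genes by -0.37, -0.48 and -0.11 for osteoblasts against OMP, osteoblasts against CMP and OMP against CMP, and relative to it mmp14a stood at 0.49 for osteoblasts against CMP.

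Counts of called genes were 1087, 1424 and 253 in the same order. With 1 library left out they ranged from 602 to 942, from 765 to 1473 and from 12 to 286, the lowest for OMP against CMP being 13 and 12 without CMP replicates 1 and 2. In these fits the lone library of a group is assumed to vary like the other groups. Members called ranged from 1 to 2, stayed at 3, and ranged from 0 to 2. For OMP against CMP, 394 genes were called with no filter beyond 1 read, 425 by DESeq2, and the older quasi-likelihood fit, added after seeing the data, called 1 member. With a replicate block the counts of genes were 1903, 2421 and 817 and those of members 2, 4 and 2. The added member was mmp14b for osteoblasts against CMP (-1.03, edgeR adjusted p = 0.00178 with the block). The deviations of same-numbered libraries correlated at 0.38, 0.30 and 0.34 across 13399 genes, but the labels tie the 2 numbers to nothing shared, so the block was not taken as a pairing. Of the calls among mmp genes outside the 6, inhibitors, activation genes, other proteases and substrates, 18 of 28, 20 of 36 and 0 of 10 held with any 1 library left out; the cause was not tested. Depth limits mmp13a and mmp20b where they had few reads.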

Other observations

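Of 31 other proteases of the matrix tested, 2 were higher and 4 lower in osteoblasts than in OMP, where 3.22% of all genes were higher and 4.9% lower. Against CMP 1 was higher and 8 lower in osteoblasts, where 4.55% of all genes were higher and 6.08% lower. The median log2 fold changes were -0.29 and -0.61, against -0.03 and -0.02 over all genes. The secreted serine protease gene htra1b was at 111 and 136 CPM in osteoblasts, 951 and 800.0 CPM in OMP, and 1282 and 1537 CPM in CMP (edgeR adjusted p = 2.39e-04 for osteoblasts against OMP and 5.51e-05 against CMP). The endopeptidase gene phex, known from phosphate handling in bone, went the other way, at 554 and 362 CPM in osteoblasts, 78.0 and 69.3 CPM in OMP, and 33.1 and 45.7 CPM in CMP. Between OMP and CMP edgeR called 0 of the 31, where 1.89% of all genes were called, so few calls were to be had among 31 genes. Of the 31, 9 had an unadjusted p under 0.05, and DESeq2 called 3 of them and 425 genes in all.

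Of 19 matrix substrates tested, 7 were higher (3.22% of all genes) and 7 lower (4.9% of all genes) in osteoblasts than in OMP. Against CMP 8 were higher (4.55% of all genes) and 7 lower (6.08% of all genes) in osteoblasts. Between OMP and CMP 5 were higher (0.955% of all genes) and 2 lower (0.933% of all genes) in OMP. The summed level of the matrix substrates was 299569 and 336067 CPM in osteoblasts, 121811 and 103640 CPM in OMP, and 45262 and 39624 CPM in CMP. In OMP and CMP most of the sum came from the type I collagen genes and sparc. In osteoblasts most of it came from these and the type X collagen genes. The median log2 fold change of the 19 was -0.17 for osteoblasts against OMP, -0.60 for osteoblasts against CMP and 0.77 for OMP against CMP. The type X collagen gene col10a1a was at 40876 and 50532 CPM in osteoblasts, 793 and 594 CPM in OMP, and 126 and 135 CPM in CMP, and was called in all 3 comparisons (edgeR adjusted p = 0.00512 for OMP against CMP). The proteoglycan gene vcanb ran in the opposite order, at 18.6 and 16.0 CPM in osteoblasts, 56.6 and 45.4 CPM in OMP, and 238 and 260.0 CPM in CMP, and was also called in all 3 (edgeR adjusted p = 0.00650 for OMP against CMP). For both genes the call of OMP against CMP was lost without either CMP library. With 1 library left out, that log2 fold change ran from 2.15 to 2.61 for col10a1a and from -2.48 to -2.13 for vcanb. The vcanb call of osteoblasts against OMP was lost without OMP replicate 1 or either osteoblast library. The 18 epidermis markers summed to 2520 and 1846 CPM in osteoblasts, 5840 and 6231 CPM in OMP, and 9983 and 10647 CPM in CMP, and the 12 fibroblast markers to 2982 and 2925 CPM in osteoblasts, 9922 and 12234 CPM in OMP, and 12854 and 15578 CPM in CMP. The fibroblast sum was thus lowest in osteoblasts and highest in CMP, as vcanb, mmp15a and timp4.3 were. Its order between OMP and CMP rested largely on lum and and1. The level of lum was 4877 and 6838 CPM in OMP and 7149 and 8415 CPM in CMP. By contrast, dcn was at 2450 and 2690 CPM in OMP and 1684 and 2012 CPM in CMP. Of the 12 markers, 1 (pah) was called higher in OMP than in CMP (0.955% of all genes), 2 were lower (0.933%) and 9 were not called. In osteoblasts, 7 were called lower than in OMP (4.9% of all genes) and 1 (dpt) higher (3.22%). Against CMP, 7 were lower (6.08%) and 0 higher (4.55%). The level of dpt was 303 and 554 CPM in osteoblasts, 50.1 and 71.4 CPM in OMP, and 272 and 471 CPM in CMP. The part of fibroblasts in the differences of vcanb, mmp15a and timp4.3 was not tested. The order of the epidermis sum rested on krt4, krt91 and krt15, and the other 15 markers summed to 614 and 273 CPM in osteoblasts, 560.3 and 486 CPM in OMP, and 538 and 176 CPM in CMP, with all groups overlapping. The sums without these genes, hapln1a or tnfrsf11a were chosen after seeing the data.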
